A study of Homo sapiens with 12 samples.

Results

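The oncofetal liver genes are transcripts known to be abundant in fetal liver, low in adult liver and high again in some liver cancers. The set was named by symbol as AFP, GPC3, LIN28B, IGF2, H19, DLK1, IGF2BP1, IGF2BP2, IGF2BP3 and SALL4. Of these 10 genes, 9 were analysed among the 23583 features of the gene table, and H19 was not analysed here. All 9 passed the filter on low counts, which kept 16946 features. GPC3, LIN28B, IGF2 and DLK1 passed it through Huh7 only, so they had to differ between the lines.

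RNA was sequenced from 2 human hepatocellular carcinoma lines, HCCLM3 and Huh7, to ask how silencing circASH2, a circular RNA, changes their expression. The 4 groups were HCCLM3 with si-circASH2, HCCLM3 with si-NC, Huh7 with si-circASH2 and Huh7 with si-NC, with 3 libraries in each. The labels give si-NC as the control for the siRNA against circASH2, and all 12 libraries carry one or the other. Whether the replicate libraries of a group stem from separate cultures is not in the labels. Every p-value here rests on a spread pooled over the 4 groups, whose replicate libraries may be technical repeats. The siRNA sequences and the time after transfection were not given in the sources used here, and the gene table holds no feature for the circle itself.

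AFP, the fetal counterpart of albumin, is secreted by the fetal liver and read in serum as a liver cancer marker. IGF2 is a fetal growth factor, GPC3 a cell surface heparan sulfate proteoglycan and DLK1 a membrane ligand of hepatoblasts related to the Notch ligands. LIN28B blocks the making of let-7 microRNAs, let-7 in turn pairs with LIN28B, IGF2BP and SALL4 messages, the IGF2BP proteins bind and stabilise mRNAs including IGF2, and SALL4 is a fetal zinc finger repressor that recruits the NuRD deacetylase complex.

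Total counts were 29006781 to 30858895 per library, and the residual coefficient of biological variation was 5.65%. Of 10 hepatocyte markers, HCCLM3 had all but SERPINA1 above 3 counts in some library, yet their summed level was 168 to 169 CPM (counts scaled to a common library depth) with si-circASH2 and 153 to 157 CPM with si-NC. In Huh7 all 10 were present, summing to 28994 to 29460 CPM with si-circASH2 and 30402 to 30493 CPM with si-NC. The summed level of 7 fibroblast markers was 49.0 to 53.5 CPM with si-circASH2 and 35.6 to 37.9 CPM with si-NC in HCCLM3. There COL1A2, PDGFRB and THY1 were at the floor, a mean of 3 counts per library or below. In Huh7 the fibroblast sum was 56.7 to 57.7 CPM with si-circASH2 and 34.3 to 40.1 CPM with si-NC, with THY1 and DCN at the floor. The sum of 6 leukocyte markers was 171 to 208 CPM with si-circASH2 and 143 to 165 CPM with si-NC in HCCLM3, and 337 to 365 CPM with si-circASH2 and 383 to 419 CPM with si-NC in Huh7, with CD3E at the floor throughout. The sum of 6 endothelial markers was 20.0 to 22.1 CPM with si-circASH2 and 26.1 to 27.9 CPM with si-NC in HCCLM3, and 23.7 to 24.4 CPM with si-circASH2 and 24.1 to 27.5 CPM with si-NC in Huh7, with CDH5 and ERG at the floor in both. The part of these markers in the results below was not tested.

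The let-7 family is shown because 5 of the 9 genes carry its match. All 9 mature let-7 and miR-98 sequences in the RefSeq table (GRCh38.p14) share 1 seed, bases 2 to 8, written in capitals in 3 of them:
hsa-let-7a-5p: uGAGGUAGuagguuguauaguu
hsa-let-7d-5p: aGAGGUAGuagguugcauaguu
hsa-miR-98-5p: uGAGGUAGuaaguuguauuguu

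The DNA letters that pair with this seed, CTACCTC, were searched on the sense strand of the longest 3′ UTR of each gene in GENCODE 29 (GRCh38). They occurred in 1786 of 18409 genes, a share of 9.70%. LIN28B and IGF2BP1 held 4 matches each, a number reached or passed by 12 genes, a share of 0.0652%. IGF2BP2, IGF2BP3 and SALL4 held 1 each, and these letters are not in the 3′ UTRs of AFP, GPC3, IGF2 and DLK1. Windows of 30 bases around 7 of the matches follow, with the match in capitals; 2 are shown for each gene with 4 matches, and 1 for each of the others:
LIN28B, chr6:105078816-105078845, plus strand: ggttgcaaagtCTACCTCatgcaagtatag
LIN28B, chr6:105081425-105081454, plus strand: acagcaaaaggCTACCTCatagttgataca
IGF2BP1, chr17:49051065-49051094, plus strand: tgcgaagtaaaCTACCTCaaggtatgaagt
IGF2BP1, chr17:49053702-49053731, plus strand: agtgctagtaaCTACCTCacagagccccag
IGF2BP2, chr3:185644209-185644238, minus strand: cacagaagaagCTACCTCaggtgtttttac
IGF2BP3, chr7:23311784-23311813, minus strand: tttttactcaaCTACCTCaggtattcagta
SALL4, chr20:51782912-51782941, minus strand: ctttaatttatCTACCTCatttatttttta

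A match describes the letters and is not shown to be a working site. An earlier analysis of these data listed the sequence TTATACC, its neighbour by 1 base TATACCA, and also TCGGAGAA, so these were searched the same way. TTATACC occurred in 7.55% of 3′ UTRs, TATACCA in 8.34% and TCGGAGAA in 0.576%. TCGGAGAA is not in any of the 9 genes. TTATACC is in LIN28B, IGF2BP1 and IGF2BP2, and TATACCA is in AFP, IGF2BP1 and IGF2BP2, overlapping TTATACC by all but 1 base in the IGF2BP genes. The windows of the IGF2BP paralogs are shown because their match lies in a run of 13 identical bases, and that of AFP because it holds no let-7 match; capitals mark the letters searched:
IGF2BP1, chr17:49052568-49052597, plus strand: aatcatgtaagTTATACCaccagaaagcaa
IGF2BP2, chr3:185643836-185643865, minus strand: tggacaagccaTTATACCaccagactgcaa
AFP, chr4:73455822-73455851, plus strand: ctttagttttgTATACCAttgtctgaagca

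**Figure D1:**
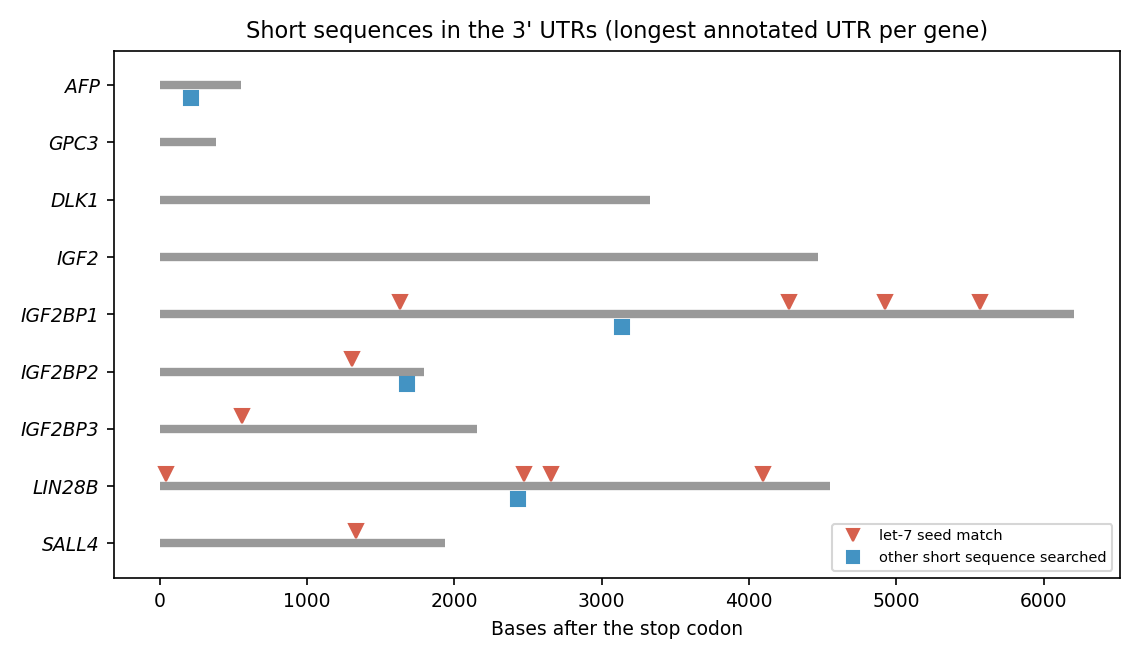
Positions of the short sequences along the longest annotated 3′ UTR of each gene, in bases after the stop codon; grey bars are the UTRs, triangles the let-7 seed matches and squares the other short sequences searched (TTATACC or TATACCA, 1 square where they overlap). IGF2BP1 and LIN28B carry 4 triangles each, and GPC3, DLK1 and IGF2 carry no mark.

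In HCCLM3 with si-NC, 8 of the 9 genes were lower than in Huh7 with si-NC and 1, IGF2BP3, was higher, beside 43.6% of all tested features lower and 41.6% higher in that comparison (edgeR adjusted p under 0.05). Of the 8, the 4 genes that passed the filter through Huh7 could only be lower, so nothing is read from that count. After si-circASH2 in Huh7, DLK1 rose, AFP, LIN28B, IGF2BP2 and IGF2BP3 fell, and 4 genes did not pass; 16.3% of all features rose and 15.1% fell. The median log2 fold change there was -0.08 over the 9 genes and 0.01 over all. After si-circASH2 in HCCLM3, AFP, IGF2BP1 and IGF2BP3 rose, IGF2BP2 fell, IGF2 and SALL4 did not pass, and GPC3, LIN28B and DLK1 had no fold; 15.1% of all features rose and 15.5% fell. The knockdown effect was higher in HCCLM3 than in Huh7 for AFP and IGF2BP3 and lower for 0 of the genes, while 9.6% of all features had a higher effect and 11.3% a lower one. Without adjustment at the 0.05 threshold, edgeR gave 1 gene with a lower effect in HCCLM3, IGF2BP2, and DESeq2 after adjustment gave 0. In Huh7, 4 of 9 genes fell where 15.1% of all features did, a count over genes chosen with earlier results known, for which no test was made. These shares of all features are also the background of the list counts that follow, none of which was tested.

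**Figure D2:**
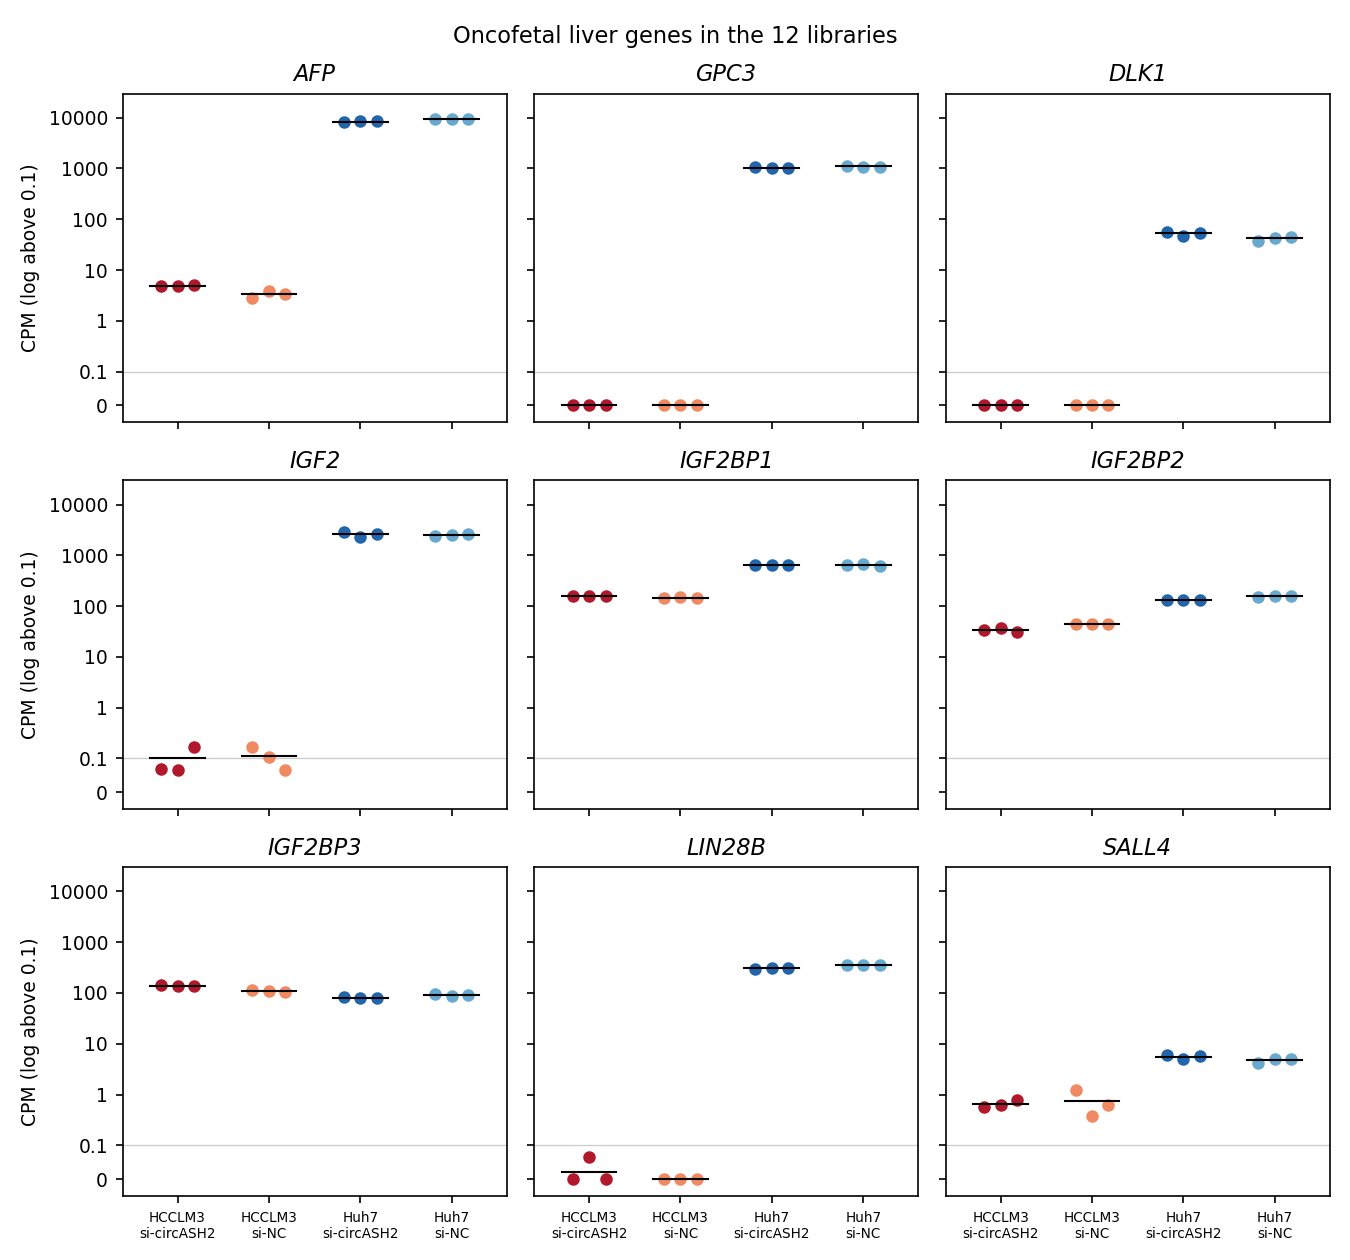
CPM of the 9 genes in the 12 libraries; each point is a library, each bar the mean of 3, and the axis is logarithmic above 0.1 CPM and linear below it. GPC3 and DLK1 sit at 0 in all 6 HCCLM3 libraries, whereas the IGF2BP genes lie between 30.6 and 671 CPM in every library of both lines.

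AFP (ENSG00000081051.7, chr4:73431138-73456174, plus strand, positions here and below in GRCh38 from GENCODE 29) was among the most abundant transcripts of Huh7 and scarce in HCCLM3. Its level in HCCLM3 was 4.85, 4.74 and 5.04 CPM with si-circASH2, against 2.76, 3.85 and 3.43 CPM with si-NC. In Huh7 it was 8168, 8567 and 8504 CPM with si-circASH2, against 9239, 9340 and 9451 CPM with si-NC. The si-circASH2 libraries were all above the si-NC libraries in HCCLM3 and all below them in Huh7. The log2 ratio of si-circASH2 over si-NC was 0.54 ± 0.08 in HCCLM3 (SE, edgeR adjusted p = 2.12e-05), a rise, and -0.15 ± 0.04 in Huh7 (edgeR adjusted p = 0.00174), a fall. The HCCLM3 ratio exceeded the Huh7 ratio by 0.70 ± 0.09 (edgeR adjusted p = 4.58e-06). With limma on log2(FPKM + 0.1), where FPKM is the deposited fragment count scaled by length and depth, the fall in Huh7 did not pass (limma adjusted p = 0.149). That was not the largest adjusted p among the alternative settings. Over them the log2 ratio in Huh7 ran from -0.17 to -0.13. In bulk libraries, fewer cells that make AFP and less AFP RNA per cell cannot be told apart. The summed hepatocyte markers given above were higher after si-circASH2 in HCCLM3 and lower in Huh7. By member, 2 of the 10 markers rose, 2 fell and 6 did not pass in Huh7. In HCCLM3, 2 rose, 0 fell, 7 did not pass and 1 was at the floor. The part of these markers in the AFP values was not tested.

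The rise in HCCLM3 concerned a small pool of reads. Summed over 3 libraries, AFP had 436 counts with si-circASH2 and 297 with si-NC in HCCLM3, against 754570 with si-circASH2 and 849510 with si-NC in Huh7. AFP took 0.845% ± 0.025 of all counts with si-circASH2 in Huh7 and 0.928% ± 0.018 with si-NC (SD, n = 3 each). Between the control lines, HCCLM3 over Huh7, the log2 ratio was -11.45 ± 0.06 (edgeR adjusted p = 1.23e-33), AFP being 2796-fold higher in Huh7 (95% counting interval 2495 to 3143). With si-circASH2 the gap was 1726-fold (1571 to 1900). These intervals cover counting error only.

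AFP lies beside albumin in a gene cluster and is known to answer to the liver factors HNF4A, FOXA1, FOXA2, CEBPA and NR5A2 and to the repressor ZHX2. The deposited FPKM ratio of AFP to ALB in HCCLM3 was 1.59 ± 0.19 with si-circASH2 and 1.03 ± 0.53 with si-NC. In Huh7 it was 0.907 ± 0.029 with si-circASH2 and 0.862 ± 0.034 with si-NC (SD, n = 3 each). The library ranges of this quotient overlapped in both lines. ALB itself did not pass in Huh7, at a log2 ratio of -0.22 ± 0.08 (edgeR adjusted p = 0.0521).

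Of 15 albumin family genes and AFP regulators tested in Huh7, 2 rose, 8 fell and 5 did not pass, beside 16.3% of all features higher and 15.1% lower. The list's median log2 fold change was -0.21, against 0.01 over all features. HNF4A, a nuclear receptor of hepatocytes, was at 192 ± 7.0 CPM with si-circASH2 and 242 ± 5.1 CPM with si-NC, a log2 ratio of -0.33 ± 0.04 (edgeR adjusted p = 2.77e-07). NR5A2 fell to 37.3 CPM with si-circASH2, against 47.9 CPM with si-NC, and GC, the vitamin D binding protein of the same cluster, fell to 203 CPM with si-circASH2, against 274 CPM with si-NC. ZHX2 moved the other way, with 41.3 CPM after si-circASH2 and 32.9 CPM after si-NC (log2 fold change 0.33 ± 0.07, edgeR adjusted p = 0.000649). FOXA1, FOXA2 and CEBPA also fell, named after their values were seen, with log2 fold changes of -0.16, -0.29 and -0.21.

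In HCCLM3 the same list gave 2 higher, 3 lower, 9 that did not pass and 1 at the floor. Among all features there, 15.1% were higher and 15.5% lower. CEBPB rose to 79.3 CPM with si-circASH2, against 59.1 CPM with si-NC, and NR2F1, a repressor in other settings, rose to 11.5 CPM with si-circASH2, against 7.82 CPM with si-NC, and rose in Huh7 as well, to 71.2 CPM with si-circASH2, against 61.4 CPM with si-NC. GC fell with a log2 fold change of -1.19 ± 0.20 and NR5A2 with -0.74 ± 0.16, both from low levels. GC was at 0.873 CPM with si-circASH2 and 1.997 CPM with si-NC, and NR5A2 at 1.70 CPM with si-circASH2 and 2.84 CPM with si-NC. HNF4A did not pass there, at -0.05 ± 0.04 (edgeR adjusted p = 0.33), and its effect in HCCLM3 was 0.28 ± 0.05 above that in Huh7 (edgeR adjusted p = 0.000594).

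GPC3 (ENSG00000147257.13, chrX:133535745-133985895, minus strand), a surface proteoglycan that binds growth factors, was listed at 0 in all 6 HCCLM3 libraries. In Huh7 it was 1051, 1025 and 1046 CPM with si-circASH2, against 1128, 1092 and 1077 CPM with si-NC. The Huh7 groups did not overlap, yet the log2 ratio of -0.08 ± 0.03 missed the threshold (edgeR adjusted p = 0.0706). It passed with DESeq2 (DESeq2 adjusted p = 0.0162), so the call rests on the tool. Against the floor of 3 counts over the group, GPC3 was at least 32555-fold lower in HCCLM3 with si-NC than in Huh7 with si-NC, and at least 31014-fold lower with si-circASH2. Of 81 genes at 1000 CPM or more in Huh7 with si-NC, 1 had no count in any HCCLM3 library, and that gene was GPC3.

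Another glypican was high in HCCLM3. GPC1 was at 91.8 CPM in HCCLM3 and 3.46 CPM in Huh7 with si-NC (log2 fold change 4.73 ± 0.07, edgeR adjusted p = 2.47e-25), whereas SULF2, a sulfatase that trims heparan sulfate, was at 0.114 CPM in HCCLM3 and 48.2 CPM in Huh7. After si-circASH2, of 14 glypicans and heparan sulfate enzymes tested, 3 rose and 4 fell in Huh7, and 2 rose and 6 fell in HCCLM3, where 1 was at the floor. EXT2, a chain polymerase subunit, fell in both lines, with log2 fold changes of -0.26 in HCCLM3 and -0.29 in Huh7. GPC1 rose in Huh7 by a log2 fold change of 0.43 ± 0.10, and GPC6 rose in HCCLM3 by 0.78 ± 0.12.

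IGF2 (ENSG00000167244.19, chr11:2129112-2149603, minus strand), the fetal growth factor, was high in Huh7 and at the edge of detection in HCCLM3. Huh7 had 2878, 2339 and 2693 CPM with si-circASH2, against 2448, 2510 and 2684 CPM with si-NC. These groups overlapped, and the log2 ratio of 0.05 ± 0.07 did not pass (edgeR adjusted p = 0.657). Without the si-circASH2 library of 2339 CPM it did pass, at 0.13 (edgeR adjusted p = 0.0319), and without the library of 2878 CPM it was -0.02. HCCLM3 had 2, 2 and 5 counts with si-circASH2, against 5, 3 and 2 counts with si-NC, so no knockdown fold is given. IGF2 was 22644-fold higher in Huh7 than in HCCLM3 with si-NC (95% counting interval 12313 to 47221). Values this low are uncertain in this table, where a count of 1 was recorded 1938 times and a count of 2 6826 times. A second annotated feature, INS-IGF2, overlaps IGF2 and held 4 to 8 counts per Huh7 library.

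The receptors and adaptors downstream of IGF2 were measured in both lines. IGF2R, the decoy receptor that takes IGF2 to lysosomes, rose in Huh7 to 561 ± 13 CPM with si-circASH2, against 462 ± 5.0 CPM with si-NC (SD, n = 3 each), and was 1 of 8 tested genes of this list to rise there, while 2 fell. In HCCLM3, 3 rose, 1 fell, 3 did not pass and 1 was at the floor. IGF1R, the signalling receptor, rose by a log2 fold change of 0.30 ± 0.05 and the docking protein IRS2 by 0.69 ± 0.16. SHC1, an adaptor to RAS, fell to 229 CPM with si-circASH2, against 378 CPM with si-NC (log2 fold change -0.72 ± 0.03, edgeR adjusted p = 3.66e-14), and fell in Huh7 too, with -0.14 ± 0.03.

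IGF2 and DLK1 are imprinted, so other imprinted genes were set beside them. Of 16 tested, 1 rose and 4 fell in Huh7 after si-circASH2, and 3 rose and 3 fell in HCCLM3. PEG10, a placental gene of retroviral origin, rose in HCCLM3 and fell in Huh7. It was at 409 ± 16 CPM with si-circASH2 in HCCLM3 and 245 ± 7.6 CPM with si-NC, and at 1532.5 ± 36 CPM with si-circASH2 in Huh7 and 1777 ± 53 CPM with si-NC. The log2 ratio was 0.95 ± 0.05 higher in HCCLM3 than in Huh7 (edgeR adjusted p = 2.15e-12). SGCE, the neighbour of PEG10, fell in both lines, with log2 fold changes of -0.28 in HCCLM3 and -0.53 in Huh7.

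DLK1 (ENSG00000185559.14, chr14:100725705-100738224, plus strand), the ligand that marks hepatoblasts, rose in Huh7, the 1 member to do so. Its level was 56.1, 47.0 and 54.1 CPM with si-circASH2, against 37.9, 43.5 and 44.6 CPM with si-NC. The lowest si-circASH2 library lay above the highest si-NC library. The log2 ratio was 0.32 ± 0.08 (edgeR adjusted p = 0.00352). DLK1 was listed at 0 in all 6 HCCLM3 libraries, and was at least 1244-fold lower there than in Huh7 with si-NC and at least 1561-fold lower with si-circASH2.

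Notch genes, whose signalling DLK1 is known to dampen, gave 3 higher and 1 lower of 10 tested in Huh7 after si-circASH2. JAG1, a ligand, rose to 166 CPM with si-circASH2, against 132 CPM with si-NC, and NOTCH2 rose to 91.9 CPM with si-circASH2, against 73.3 CPM with si-NC. NOTCH1 fell to 11.8 CPM with si-circASH2, against 15.5 CPM with si-NC. In HCCLM3, where DLK1 was listed at 0, JAG1 and NOTCH2 fell and the target gene HEY1 rose to 39.1 ± 0.76 CPM with si-circASH2, against 20.0 ± 1.1 CPM with si-NC. JAG1 fell with a log2 fold change of -0.32 ± 0.04 in HCCLM3 and rose with 0.33 ± 0.05 in Huh7.

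LIN28B (ENSG00000187772.7, chr6:104936616-105083332, plus strand), the RNA-binding protein that blocks let-7, fell in Huh7. It was at 302, 307 and 315 CPM with si-circASH2, against 361, 351 and 354 CPM with si-NC. Every si-circASH2 library lay below every si-NC library. The log2 ratio was -0.21 ± 0.04 (edgeR adjusted p = 0.000557). In HCCLM3 the counts were 0, 2 and 0 with si-circASH2 and 0 in all 3 si-NC libraries, at least 10536-fold lower than in Huh7 with si-NC.

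Of 11 tested genes of let-7 processing, DICER1, DGCR8 and HNRNPA1 fell in Huh7 and 0 rose, by edgeR and by DESeq2; without adjustment, edgeR gave 2 higher. DICER1, which cuts the let-7 hairpin, was at 43.6 ± 3.9 CPM with si-circASH2 and 61.4 ± 2.4 CPM with si-NC in Huh7, and at 53.7 ± 2.4 CPM with si-circASH2 and 70.5 ± 3.2 CPM with si-NC in HCCLM3. It fell in both, with log2 fold changes of -0.39 ± 0.06 in HCCLM3 and -0.49 ± 0.06 in Huh7. In HCCLM3, ZCCHC6, a uridylyl transferase that acts with LIN28 proteins, also fell, while DROSHA and KHSRP, which promote processing, rose by 0.25 and 0.18 on the log2 scale.

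Known let-7 targets outside the set, DICER1 among them, were counted next. In Huh7, 0 of 23 tested rose, 11 fell and 12 did not pass by edgeR, with a median log2 fold change of -0.16, against 0.01 over all features. Among all features there, 16.3% rose and 15.1% fell. DESeq2 also gave 0 higher let-7 targets, as did edgeR without adjustment. In HCCLM3, 3 rose, 7 fell, 11 did not pass and 2 were at the floor, with a median of -0.11, against 0 over all features, of which 15.1% rose and 15.5% fell. CDC25A, a phosphatase that drives the cell cycle, fell in Huh7 to 63.8 ± 0.92 CPM with si-circASH2, against 107 ± 1.6 CPM with si-NC. PLAGL2 fell in both lines, by log2 fold changes of -0.35 ± 0.05 in HCCLM3 and -0.45 ± 0.05 in Huh7, and E2F5 likewise, with -0.69 ± 0.08 in HCCLM3 and -0.37 ± 0.07 in Huh7. NR6A1, an orphan nuclear receptor, rose in HCCLM3 with 0.37 ± 0.13 (edgeR adjusted p = 0.0372) and fell in Huh7 with -0.38 ± 0.05. Its HCCLM3 groups overlapped and were low, at 2.78 CPM with si-circASH2 and 2.15 CPM with si-NC. HMGA2, the classic let-7 target, named after its values were seen, fell with -0.18 in HCCLM3 and -0.24 in Huh7. HMGA1 of the same list, also named after its values were seen, rose in HCCLM3 with 0.14 and fell in Huh7 with -0.16. Between the control lines, 18 of the 23 were lower in HCCLM3 and 5 higher, where 43.6% of all features were lower and 41.6% higher. IGDCC3 and PLAGL1, named after their values were seen, were at the floor in HCCLM3 and passed the filter through Huh7. They could only be lower, so nothing is read from that count. TRIM71, a fetal ubiquitin ligase, was at 2.44 CPM in HCCLM3 and 234 CPM in Huh7, MYCN at 0.222 CPM in HCCLM3 and 105 CPM in Huh7, and NR6A1 at 2.15 CPM in HCCLM3 and 137 CPM in Huh7, all with si-NC.

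**Figure D3:**
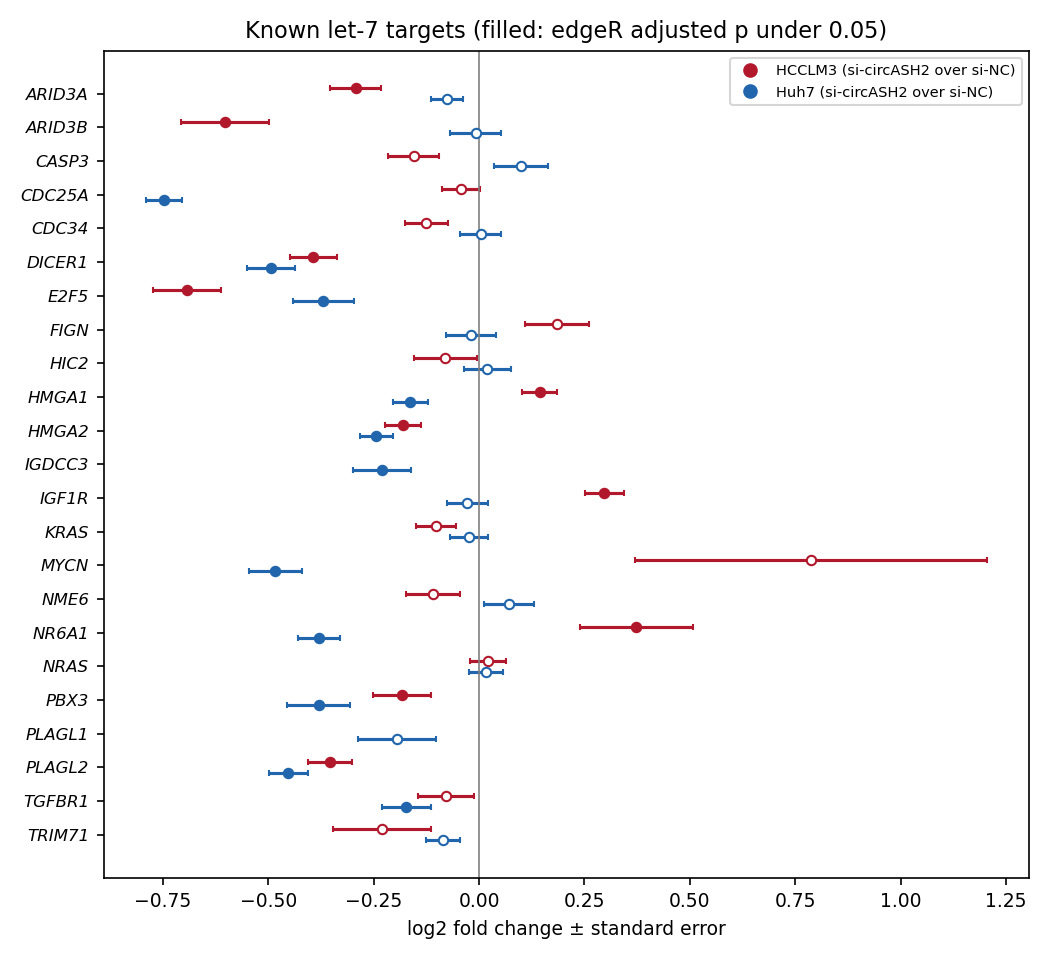
Log2 fold changes (si-circASH2 over si-NC) of the known let-7 targets outside the set, with standard errors; filled points passed an edgeR adjusted p of 0.05, HCCLM3 is above Huh7 in each row, and genes at the floor have no HCCLM3 point. DICER1, E2F5 and PLAGL2 have filled points left of 0 in both lines, and HMGA1, IGF1R and NR6A1 have filled points right of 0 in HCCLM3.

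The 3 IGF2BP genes encode a family of RNA-binding proteins and were above 30 CPM in all 12 libraries. AFP and SALL4 were counted in every library too, but below 6 CPM in HCCLM3. IGF2BP1 (ENSG00000159217.9, chr17:48997412-49055650, plus strand) had 157, 157 and 156 CPM with si-circASH2 in HCCLM3, against 147, 150.2 and 142 CPM with si-NC. In Huh7 it was 645, 641 and 657 CPM with si-circASH2, against 659.6, 671 and 628 CPM with si-NC. The HCCLM3 groups did not overlap and the Huh7 groups did. It rose in HCCLM3, with a log2 ratio of 0.10 ± 0.03 (edgeR adjusted p = 0.03). The call was lost with limma on FPKM (limma adjusted p = 0.0547 to 0.0650). It was also lost without any 1 of the HCCLM3 si-circASH2 libraries, the si-NC library of 147 CPM or that of 142 CPM (edgeR adjusted p = 0.0603 to 0.155). The Huh7 value was -0.01 ± 0.03 (edgeR adjusted p = 0.844).

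IGF2BP2 (ENSG00000073792.15, chr3:185643739-185825056, minus strand), the paralog most widely kept in adult tissues, fell in both lines. HCCLM3 had 33.9, 37.7 and 30.6 CPM with si-circASH2, against 44.7, 43.6 and 45.3 CPM with si-NC. Huh7 had 133, 131 and 134 CPM with si-circASH2, against 151, 159 and 156 CPM with si-NC. No groups overlapped. The log2 fold changes were -0.39 ± 0.05 in HCCLM3 (edgeR adjusted p = 6.02e-06) and -0.23 ± 0.05 in Huh7 (edgeR adjusted p = 0.000672), and their difference of -0.16 ± 0.07 did not pass (edgeR adjusted p = 0.118).

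IGF2BP3 (ENSG00000136231.13, chr7:23310209-23470467, minus strand), known for its reappearance in tumours, rose in HCCLM3 and fell in Huh7. HCCLM3 had 141, 140.4 and 137 CPM with si-circASH2, against 113, 108 and 105 CPM with si-NC. Huh7 had 82.8, 80.5 and 78.9 CPM with si-circASH2, against 93.6, 87.6 and 90.8 CPM with si-NC. The si-circASH2 libraries all lay above si-NC in HCCLM3 and all below it in Huh7. The effects were 0.36 ± 0.04 in HCCLM3 (edgeR adjusted p = 1.88e-07) and -0.17 ± 0.04 in Huh7 (edgeR adjusted p = 0.0026), and differed by 0.53 ± 0.06 (edgeR adjusted p = 3.23e-07). It was also the member that was higher in HCCLM3 than in Huh7 with si-NC, at a log2 ratio of 0.26 ± 0.04 (edgeR adjusted p = 2.87e-06), while IGF2BP1 and IGF2BP2 were lower there, at -2.16 ± 0.03 and -1.80 ± 0.05.

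**Figure D4:**
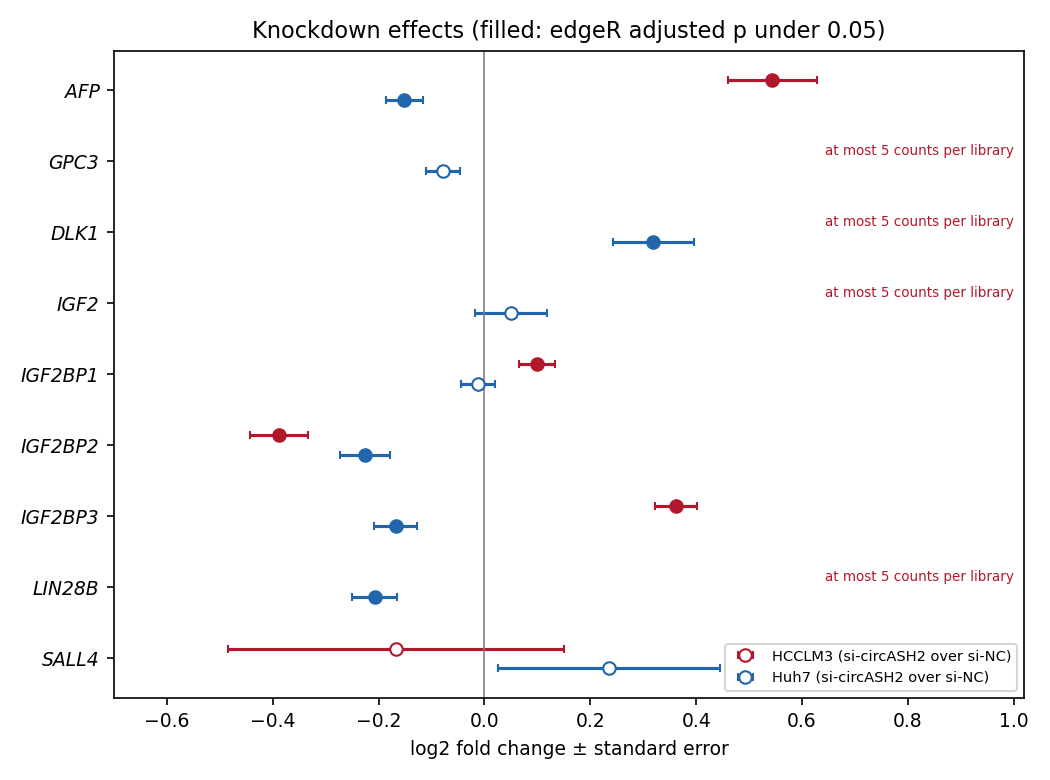
Log2 fold changes of si-circASH2 over si-NC with standard errors for the 9 genes, HCCLM3 above Huh7; filled points passed an edgeR adjusted p of 0.05, and genes with at most 5 counts per HCCLM3 library have no HCCLM3 point. AFP and IGF2BP3 are right of 0 in HCCLM3 and left of 0 in Huh7, and IGF2BP2 is left of 0 in both.

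The deposited FPKM values allowed levels to be compared between the paralogs per length. In HCCLM3, IGF2BP3 held 54.1% ± 0.55 of the summed IGF2BP FPKM with si-circASH2 and 46.2% ± 0.60 with si-NC, and IGF2BP2 held 15.1% ± 1.16 with si-circASH2 and 22.03% ± 0.70 with si-NC. IGF2BP1 held 30.8% ± 0.65 with si-circASH2 and 31.8% ± 0.80 with si-NC. In Huh7, IGF2BP1 led with 58.7% ± 0.44 with si-circASH2 and 55.3% ± 0.88 with si-NC, and IGF2BP2 held 27.1% ± 0.08 with si-circASH2 and 29.7% ± 0.80 with si-NC (SD, n = 3 each). The leading paralog thus was IGF2BP3 in HCCLM3 and IGF2BP1 in Huh7. The sum of the 3 was 54.7 ± 1.12 FPKM with si-circASH2 in HCCLM3 and 49.4 ± 1.72 FPKM with si-NC, and 117 ± 2.47 FPKM with si-circASH2 in Huh7 and 126 ± 1.60 FPKM with si-NC. The library ranges of the sum did not overlap in either line.

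**Figure D5:**
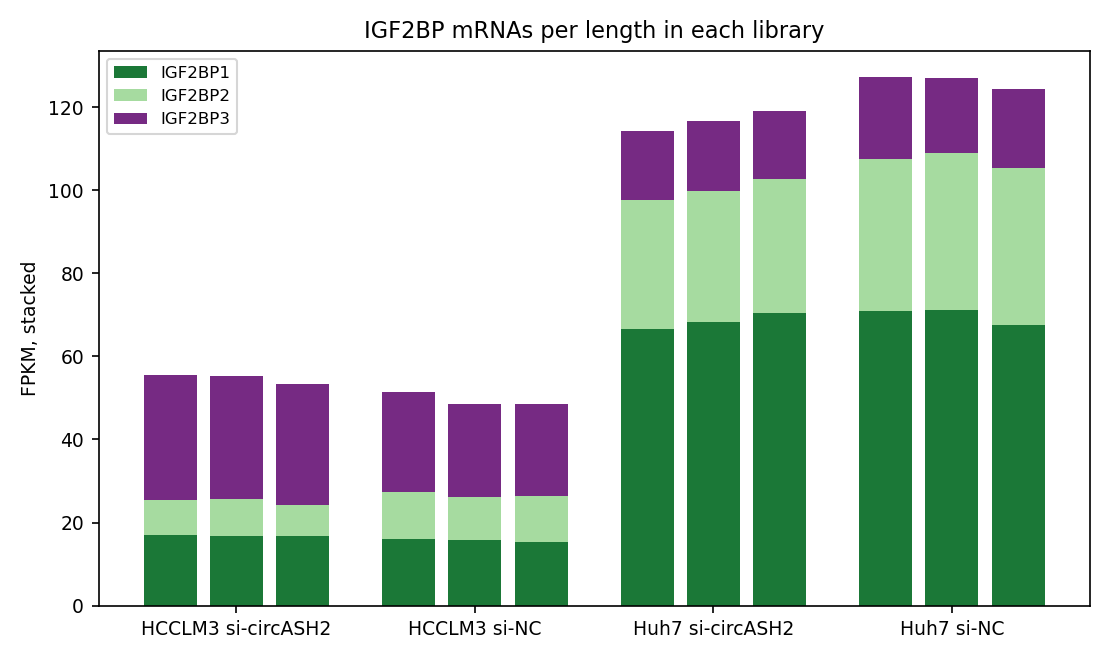
Stacked FPKM of IGF2BP1, IGF2BP2 and IGF2BP3 in each of the 12 libraries, each bar 1 library. The IGF2BP3 segment is the largest in all 6 HCCLM3 bars and the smallest in all 6 Huh7 bars, and the Huh7 bars are taller.

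Proteins that bind RNA together with the IGF2BPs gave 0 higher and 6 lower of 9 tested in Huh7 after si-circASH2, and 0 higher and 3 lower in HCCLM3. Over all features, 16.3% were higher and 15.1% lower in Huh7, and 15.1% higher and 15.5% lower in HCCLM3. In Huh7 edgeR without adjustment and DESeq2 also gave 0 higher, and in HCCLM3 each gave 1. SYNCRIP fell in both lines, to 303 CPM with si-circASH2, against 360 CPM with si-NC in HCCLM3, and to 384 CPM with si-circASH2, against 454 CPM with si-NC in Huh7. HNRNPU, DHX9 and ELAVL1 fell in Huh7, with log2 fold changes of -0.17, -0.21 and -0.18. The mRNAs known to be bound by IGF2BPs gave 3 higher and 4 lower of 13 in Huh7, and 1 higher and 6 lower in HCCLM3, with 1 at the floor. MKI67, a mark of cycling cells, fell in Huh7 to 403 ± 11 CPM with si-circASH2, against 548 ± 18 CPM with si-NC, and PDLIM7, a LIM domain protein, fell in HCCLM3 to 20.4 CPM with si-circASH2, against 25.6 CPM with si-NC. PDLIM7 rose in Huh7, to 74.5 CPM with si-circASH2, against 66.4 CPM with si-NC. CD44, an adhesion receptor, rose in Huh7 to 13.8 ± 0.085 CPM with si-circASH2, against 6.61 ± 0.68 CPM with si-NC. In HCCLM3 it fell, to 289 CPM with si-circASH2, against 324 CPM with si-NC (log2 ratio -0.17 ± 0.04, edgeR adjusted p = 0.0055).

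SALL4 (ENSG00000101115.12, chr20:51782331-51802520, minus strand), the fetal zinc finger repressor, was low in both lines. Huh7 had 5.99, 4.97 and 5.71 CPM with si-circASH2, against 4.17, 4.91 and 5.08 CPM with si-NC. HCCLM3 had 17, 19 and 23 counts with si-circASH2, against 36, 11 and 19 counts with si-NC. Both pairs of groups overlapped, and the log2 fold changes of -0.17 ± 0.32 in HCCLM3 (edgeR adjusted p = 0.765) and 0.24 ± 0.21 in Huh7 (edgeR adjusted p = 0.442) did not pass. Without the HCCLM3 si-NC library of 36 counts the HCCLM3 value was 0.38, so 1 library sets its sign. SALL4 was lower in HCCLM3 than in Huh7 with si-NC by a log2 fold change of -2.66 ± 0.26.

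Of 15 SALL relatives and NuRD subunits tested, 4 rose and 6 fell in Huh7, and 5 rose and 1 fell in HCCLM3, where 1 was at the floor. HDAC1, a NuRD deacetylase, rose in Huh7 to 212 ± 7.5 CPM with si-circASH2, against 159 ± 1.7 CPM with si-NC. It rose in HCCLM3 to 127 CPM with si-circASH2, against 115 CPM with si-NC. SALL2 rose in Huh7 to 34.2 CPM with si-circASH2, against 18.8 CPM with si-NC, and had no count in HCCLM3 with si-NC. GATAD2A rose in both lines, by 0.20 in HCCLM3 and 0.21 in Huh7 on the log2 scale.

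By deposited FPKM with si-NC, the order in HCCLM3 was IGF2BP3 at 22.9, IGF2BP1 at 15.7, IGF2BP2 at 10.9, AFP at 1.19, SALL4 at 0.124 and IGF2 at 0.016, with the other 3 listed at 0. In Huh7 it was AFP at 3329, IGF2 at 460, GPC3 at 390, IGF2BP1 at 69.9, LIN28B at 68.3, IGF2BP2 at 37.5, IGF2BP3 at 18.9, DLK1 at 8.45 and SALL4 at 0.811. AFP ranked 17 among the 19179 features above 0 in Huh7. The library ranges of IGF2BP1 and LIN28B overlapped in Huh7, so their order there is not set.

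The genes whose log2 CPM over the 12 libraries lay nearest to each member, by Euclidean distance after centring, are given as a description. COL2A1 was among the 3 nearest to AFP (0.94, against a median of 19.2 over all genes). The nearest were IGF2 for GPC3 and GPC3 for IGF2 (0.94), FABP1 for LIN28B (1.13) and PCDH17 for DLK1 (0.37). For the other members they were PI4K2B for IGF2BP1 (0.17), ASRGL1 for IGF2BP2 (0.23), NCAPD2 for IGF2BP3 (0.18) and SRCIN1 for SALL4 (0.67). FABP1 and PCDH17 were listed at 0 in HCCLM3, and COL2A1 was at 0.022 CPM with si-circASH2 and 0 CPM with si-NC there. For genes at or near 0 in HCCLM3, the distance depends on the 2 counts added before the logarithm. NCAPD2, a condensin subunit, had 309 CPM with si-circASH2 and 251 CPM with si-NC in HCCLM3, and 183 CPM with si-circASH2 and 211 CPM with si-NC in Huh7.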

How the data were processed

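Total RNA of 12 libraries was sequenced from kits that the labels' protocols call SMARTER mRNA-Seq. The authors deposited a table of raw counts per gene and a table of FPKM values, per the file headers. The submitters' processing notes name hg38, GRCm38 and mm10 with no role for each, and the aligner, counter, annotation and strand setting were not given in the sources used here. Without strand, reads of overlapping or antisense genes cannot be told apart.

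The 9 genes and all gene lists were chosen with earlier results of these data known. Counts were scaled by TMM, and 16946 features that passed edgeR's filterByExpr (minimum count 10) were fitted with edgeR 4.0.16 (R 4.3.3) by the robust quasi-likelihood test over 4 groups, with 8 residual degrees of freedom. The 4 comparisons were each knockdown, their difference and the control lines. P-values were adjusted by Benjamini-Hochberg over all tested features, and SE is the log2 fold change over the root of F. A gene is at the floor when its mean is at most 3 counts per library in each group compared. For the difference of effects, this holds for both groups of either line. A count of 3 is 0.0981 to 0.105 CPM in 1 library. From each of the 10 other lists, up to 4 genes with the smallest passing p were named per comparison, and other names are marked in the text. Sums over lists and FPKM ratios are descriptions.

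Alternatives were DESeq2 1.42.0, limma 3.58.1 on log2(FPKM + 0.1) or + 1, upper-quartile scaling, no filter on low counts, fits to the compared groups alone, the replicate number as a block and each library left out. The test was checked on simulated counts. 3′ UTRs came from GENCODE 29 and microRNAs from RefSeq. Some genes that the naming rule selects are not reported here.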

Additional observations from a re-analysis of the deposited data

Results flagged for a closer look

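For AFP and IGF2BP3 the effect of si-circASH2 differed between the lines by the test of the difference itself. The AFP effect in HCCLM3 minus that in Huh7 was 0.70 on the log2 scale, with the si-circASH2 libraries all higher than si-NC in HCCLM3 and all lower in Huh7, and AFP stood at 4.88 CPM with si-circASH2 and 3.35 CPM with si-NC in HCCLM3, and at 8413 CPM with si-circASH2 and 9343 CPM with si-NC in Huh7. The IGF2BP3 effect in HCCLM3 minus that in Huh7 was 0.53, with the same split of libraries at 139 CPM with si-circASH2 and 108 CPM with si-NC in HCCLM3, and 80.7 CPM with si-circASH2 and 90.7 CPM with si-NC in Huh7.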

How the results depend on the processing

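Leaving aside the fits without 1 library, 235 values kept their direction and side of the threshold, 3 changed sign, 4 newly passed and 5 no longer passed. Without 1 library the numbers were 323, 4, 4 and 5. Each of the 12 libraries was left out for every comparison, also where its group was not compared, which leaves mainly the shared spread to change. Both totals hold the differences between lines of GPC3, LIN28B, IGF2 and DLK1, which had to differ. The number of values kept is therefore no measure of stability. Sign changes were IGF2BP1 in Huh7 with upper-quartile scaling (0.0046) and SALL4 in HCCLM3 with limma on log2(FPKM + 0.1) (0.01, and 0.0052 with the filter on low values changed). Without 1 library, IGF2 in Huh7 ranged from -0.017 to 0.13, IGF2BP1 in Huh7 from -0.039 to 0.0078, SALL4 in HCCLM3 from -0.47 to 0.38 and the SALL4 difference from -0.70 to 0.14. The number of the 9 genes higher in Huh7 was 1 or 2, and the number with a lower effect in HCCLM3 0 or 1, over the fits without 1 library. The cause of these changes was not tested.

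The replicate numbers gave correlations of deviations between -0.041 and 0.041 for same-numbered libraries, and between -0.073 and 0.059 for differently numbered ones. In the labels the libraries share only a number. These values cannot tell whether same-numbered libraries also share a culture or a batch. With the replicate block, Huh7 again had 1 gene higher and 4 lower, HCCLM3 3 and 1, and AFP gave -0.15 in Huh7 and 0.54 in HCCLM3; no call on the 9 genes changed. Depth limits GPC3, DLK1, LIN28B and IGF2 in HCCLM3, where 5 counts or fewer were recorded per library.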
